A study of Arabidopsis thaliana with 16 samples.

Results

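Seedlings of Arabidopsis thaliana labelled tcx5/6 were compared with wild-type (WT) seedlings across all genes measured by mRNA sequencing. The libraries were chosen by table, tissue and genotype: 2 tcx5/6 and 2 WT libraries, 4 of the 16 in the series. The tcx5/6 plants carry the genotype tcx5-/-tcx6-/-, and the labels describe no allele, accession or transgene further. Plants of both groups were 2 weeks old, grown on plates of MS medium at 22 °C in 16 h of light and 8 h of dark, and RNA was taken with TRIzol from 1 g of tissue. Other libraries serve below for side by side values: 2 each of ddm1-/- and tcx5-/-tcx6-/-ddm1-/- seedlings, and 2 each of WT and tcx5/6 leaf and shoot apical meristem (SAM) from plants 1 month old. Leaf and SAM are named in the titles, while the tissue field of these libraries reads seedlings.

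TCX5 and TCX6 are CXC-domain proteins that bind DNA as part of the DREAM complex, an assembly of E2F, retinoblastoma-related, MYB and CXC proteins. DREAM is known for holding cell cycle genes silent in cells that do not divide. E2F factors bind GC-rich sites of the type TTTCCCGC, and CXC proteins are known from animals to bind a short element called CHR, TTTGAA or TTCGAA. The series title places the study in the field of DNA methylation, and the comparison asks which transcripts differ when both TCX genes carry mutations.

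Values are signal, read counts adjusted by the authors to a common library size. They are neither raw counts nor divided by gene length, and the depth behind them is unknown. Total signal was 33.31 and 34.03 M in WT and 31.13 and 31.78 M in tcx5/6. Replicates correlated with a Pearson r of 0.995 in WT and 0.9955 in tcx5/6 over 17168 genes, and 0 genes above 0 had equal values in both replicates of a group. Yet both WT libraries had 24047 genes above 0, and both tcx5/6 libraries had 23951. Values near 0 may thus depend on the other replicate, and the cause was not tested. Whether replicates were grown separately is not stated, so the spread between them may be technical. The seedling p-values rest on a spread pooled over WT, tcx5/6, ddm1 and tcx5/6 ddm1 libraries, unless a fit is said to use fewer. Replicates lay further apart in the ddm1 background. Their median absolute log2 difference was 0.1306 in ddm1 and 0.1596 in tcx5/6 ddm1, against 0.09084 in WT and 0.08472 in tcx5/6. Low values recur: of genes whose higher WT value lay between 0.5 and 20, 99.5% shared their exact pair of WT values with another gene, so such values are steps of adjusted counts and not fine measurements. Of 7 photosynthetic shoot markers all were above 0 in every library, with a summed signal of 1712000 and 1786000 in WT and 1341000 and 1434000 in tcx5/6. None of the 7 was called by limma-trend. Root markers summed to 6696 and 6855 in WT and 8255 and 8072 in tcx5/6, and PHO1 was the 1 of 7 called. Shoot meristem markers summed to 548.4 and 586.4 in WT and 764.2 and 744.2 in tcx5/6 with none of 6 called and WUS at 0, and flower markers to 212.9 and 185.2 against 518.1 and 446.4, with SEP3 called. Pollen markers summed to at most 3.41 and seed markers to at most 36.2. A smaller share of a cell type and less RNA per cell cannot be told apart in whole seedlings.

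TCX5 (AT4G29000, TAIR10.1 chromosome 4) had a signal of 486.0 and 496.7 in WT and 240.2 and 267.5 in tcx5/6. TCX6 (AT2G20110, chromosome 2) read 162.6 and 152.1 in WT and 782.7 and 759.7 in tcx5/6. The TCX5 values were lower in tcx5/6 and those of TCX6 higher, although both genes are labelled as mutated. The level of a transcript cannot say if its gene still makes a working protein.

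More genes were called higher than lower in tcx5/6 seedlings, most clearly among genes that changed at least 2-fold. Of 25016 genes tested, 2905 (11.6%) were called by limma-trend on log2(signal + 1) at a Benjamini-Hochberg adjusted p under 0.05, 1816 (7.26%) higher and 1089 (4.35%) lower. With only 2 libraries a group, each library was also left out in turn, and 826 genes (3.3%) were called in the same direction in all 5 fits, 673 (2.69%) higher and 153 (0.612%) lower. Of these, 491 rose and 54 fell at least 2-fold. The balance depended on the fit. With the 4 compared libraries alone, 3532 genes were called higher and 2976 lower, and 1058 and 296 of them changed at least 2-fold. Groups did not overlap in 15939 genes (63.7%), so non-overlap of 2 against 2 libraries says little by itself. Genes said to rise or fall below were called in all 5 fits.

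**Figure D1:**
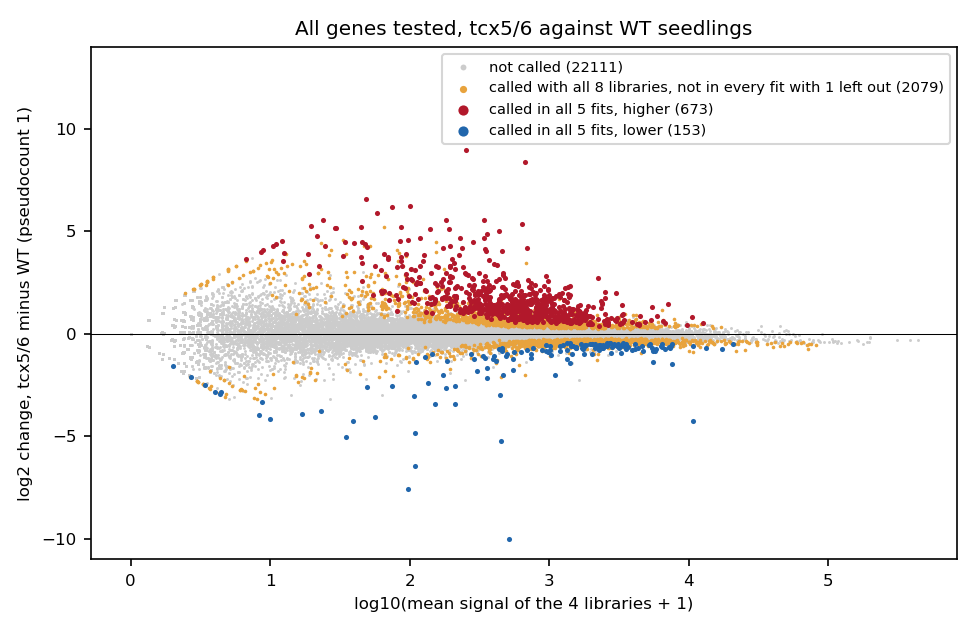
Each point is 1 of the 25016 genes tested, placed by its log10 mean signal over the 4 libraries (plus 1) and by its log2 change, tcx5/6 minus WT. Red (673) and blue (153) points were called in all 5 fits, orange points with all 8 libraries but not with every library left out, and the largest changes up are more numerous than those down.

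Promoters were read in windows of 250 bases before to 50 bases after each gene's start, for 25003 genes. An E2F-type motif, spelled TTTCCCGC, TTTCGCGC, TTTGCCGC or TTTGGCGC on either strand, lay in 1.79% of all windows. It lay in 6.67% of windows of genes called higher (121 of 1814) and in 1.84% of genes called lower. Among genes that rose in all 5 fits the share was 10.5% (71 of 673), and among those that fell it was 1.31% (2 of 153). A CHR-type motif, TTTGAA or TTCGAA on either strand, was common everywhere: 48.6% of all windows held one, against 64.2% in genes that rose and 49.7% in genes that fell. The windows of 29.0% of the genes that rose held at least 2 CHR motifs, against 15.8% of all. Of the 12142 windows with a CHR-type motif, 10597 belonged to genes that were not called, as did 306 of the 447 with an E2F-type motif. A match is a description of letters, not of binding.

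Below are 4 promoters, 250 bases up to the gene's start in the direction of transcription, from the RefSeq TAIR10.1 assembly, with motifs in capitals. AT4G10950 (chr4:6713513-6713762, minus strand) and AT4G33870 (chr4:16236493-16236742, minus strand) are the 2 genes of the 15 largest rises with an E2F-type motif. Their copies of TTTCCCGC begin 19 and 103 bases before the start. TIL2 (chr2:11580964-11581213, plus strand) and the centromere histone gene HTR12 (chr1:143239-143488, plus strand) are shown for CHR motifs alone, of which HTR12 has 2.
AT4G10950: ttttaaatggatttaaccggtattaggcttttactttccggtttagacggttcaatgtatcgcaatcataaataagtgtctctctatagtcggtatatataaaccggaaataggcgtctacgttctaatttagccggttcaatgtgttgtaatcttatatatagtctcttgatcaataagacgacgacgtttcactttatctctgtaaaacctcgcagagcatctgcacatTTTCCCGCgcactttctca
AT4G33870: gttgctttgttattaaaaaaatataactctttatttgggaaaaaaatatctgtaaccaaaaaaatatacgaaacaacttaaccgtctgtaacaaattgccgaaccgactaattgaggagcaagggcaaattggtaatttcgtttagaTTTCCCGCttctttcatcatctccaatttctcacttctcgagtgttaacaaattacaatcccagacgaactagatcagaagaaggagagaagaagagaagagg
TIL2: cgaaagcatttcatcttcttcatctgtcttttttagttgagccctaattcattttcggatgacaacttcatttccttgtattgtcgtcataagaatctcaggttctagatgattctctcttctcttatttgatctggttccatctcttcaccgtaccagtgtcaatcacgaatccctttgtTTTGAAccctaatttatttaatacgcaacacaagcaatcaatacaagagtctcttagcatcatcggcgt
HTR12: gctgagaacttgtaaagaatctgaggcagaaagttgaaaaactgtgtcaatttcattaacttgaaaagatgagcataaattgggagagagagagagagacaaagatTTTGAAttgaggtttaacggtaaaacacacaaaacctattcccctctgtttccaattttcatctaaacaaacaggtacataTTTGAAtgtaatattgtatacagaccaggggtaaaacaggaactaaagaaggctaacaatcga
Of the 15 largest rises 9 held a CHR motif, and of the 15 largest falls 6 did and 0 held an E2F motif. These counts cover the 250 bases alone. In the windows above, which add 50 bases after the start, 48.6% of all genes held a CHR motif and 1.79% an E2F motif. No test was run on these counts.

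Several genes went from near silence to a clear signal. AT1G58050, which encodes an RNA helicase (chromosome 1, 21478590 to 21487839), stood at 505.1 and 504.8 in tcx5/6 libraries, and both WT libraries listed it at 0. TIL2 encodes a second catalytic subunit of DNA polymerase epsilon, and it read 4.60 and 1.91 in WT against 1347 and 1318. These groups were far apart, and TIL2 rose by log2 8.37 ± 0.41 (SE). The aldehyde oxidase gene AO4 rose from 4.54 and 0.262 to 192.0 and 203.9, and RMF, an F-box gene named for reduced male fertility, from 2.28 and 0.132 to 106.0 and 119.7. AT4G10950, an esterase gene of the SGNH type, read 0.0502 and 2.80 in WT and 140.0 and 151.9 in tcx5/6. The kinase gene AT1G24650 read 97.1 and 94.7 in tcx5/6, and WT libraries listed it at 0. In all, 14 genes lay under 5 in both WT libraries and over 50 in both tcx5/6 libraries, and 11 of them were called in all 5 fits.

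Other large rises started from a low but measurable level. AT4G33870, a peroxidase family gene, rose from 5.93 and 7.64 to 344.1 and 371.4 (log2 5.53 ± 0.47, limma-trend adjusted p = 0.00024). AT1G52270, an uncharacterized gene, rose from 23.6 and 27.7 to 812.4 and 888.0. The meiotic double-strand break genes DFO and SPO11-2 read 5.73 and 2.01, and 7.02 and 6.38, in WT. In tcx5/6 they read 167.1 and 169.2, and 277.5 and 261.3. DL1D, a dynamin-like gene, read 9.29 and 6.61 in WT and 206.3 and 245.6 in tcx5/6, and AT4G32510, a bicarbonate transporter gene, 21.2 and 24.7 against 637.7 and 754.6.

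A smaller set went the other way, with 5 genes over 50 in both WT libraries and under 5 in both tcx5/6 libraries. MRU1 (AT5G35490) and AT5G35480 are neighbours on chromosome 5 that are transcribed away from each other, and their upstream windows overlap. MRU1, named for its response in a methionine-overaccumulating mutant, read 229.2 and 199.7 in WT and 1.41 and 1.55 in tcx5/6. AT5G35480 read 216.0 and 166.3 in WT and was listed at 0 in both tcx5/6 libraries. The neighbours were thus low together. QQS, an orphan gene that acts on starch, read 1021 and 1031 in WT, and neither tcx5/6 library listed it above 0.

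Less complete falls included AT3G46370, a leucine-rich repeat kinase gene, which went from 760.2 and 810.3 to 98.5 and 97.7 (log2 -2.99 ± 0.18). AT2G40960, a gene for a nucleic acid binding R3H protein, went from 354.9 and 359.3 to 60.3 and 61.0. AT4G07820, of the family of secreted CAP proteins, read 210.8 and 208.0 in WT and 4.44 and 8.69 in tcx5/6. The cold-regulated chloroplast protein gene COR15B went from 115.2 and 139.3 to 15.8 and 26.4. Among abundant transcripts, the noncoding RNA gene AT4G13495 fell from 11500 and 10980 to 4016 and 4095 (log2 -1.47 ± 0.12).

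Gene lists were then described by their counts, beside the shares of all genes tested (7.26% higher, 4.35% lower). These lists were chosen with earlier results of these data known, and no set test was run.

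Of 11 kinetochore and centromere genes 8 were called, all higher, and 5 rose in all 5 fits, with a median log2 change of 0.72 against 0.00 for all genes. CENP-C, which ties centromeric chromatin to the kinetochore, read 943.5 and 871.3 in WT and 2393 and 2479 in tcx5/6 (log2 1.43 ± 0.09). HTR12, the centromere-specific histone H3, rose from 167.3 and 153.8 to 442.7 and 482.6. The checkpoint gene BUB3.1 rose by log2 1.07 ± 0.10, and the shugoshin-type gene AT5G04320, of a family that protects cohesion at centromeres, by log2 0.72 ± 0.08.

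The summed shoot meristem markers given above were also higher in tcx5/6, beside these and the other division genes that follow, and their part was not tested.

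Kinesin motors, which move cargo and chromosomes along microtubules, showed 25 of 45 called higher and 2 lower, 16 of them higher in all 5 fits. POK1, a kinesin known to mark the plane of cell division, read 1022 and 913.9 in WT and 3983 and 4100 in tcx5/6 (log2 2.06 ± 0.11, limma-trend adjusted p = 3.7e-05). AT5G33300, annotated as a chromosome-associated kinesin, rose from 315.9 and 285.4 to 1226 and 1206, and AT3G63480 from 171.5 and 209.3 to 946.6 and 1053. None of the 45 kinesin windows held an E2F-type motif. With 1.79% of all windows holding one, 0 of 45 does not set kinesins apart. A CHR-type motif lay in 62.2% of kinesin windows, against 48.6% of all windows.

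Helicases, which unwind nucleic acids, had 26 of 122 members called, all higher, and 18 rose in all 5 fits. FANCM, which limits crossovers in meiosis, read 180.1 and 166.3 in WT and 1060 and 957.2 in tcx5/6. AT5G07810, an SNF2-type helicase gene, rose from 308.6 and 256.5 to 1093 and 1027. Chromatin remodelling ATPases partly overlap this family, and 9 of 24 were called, all higher, 5 in all 5 fits. RAD54, which acts in recombination repair, rose from 306.3 and 259.4 to 1628 and 1709 (log2 2.56 ± 0.11), whereas CHR17, a nucleosome-spacing remodeller of the ISWI type, rose from 2031 and 1843 to 3230 and 3211.

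Histone acetylation and deacetylation genes had 7 of 28 called, all higher, 3 of them in all 5 fits. HAG2, a histone acetyltransferase gene, rose by log2 0.90 ± 0.10, while HAF2, which encodes a TAF1-type acetyltransferase, rose by log2 3.18 ± 0.43. Small RNA machinery had 6 of 25 genes called higher and 1 lower, and 3 rose in all 5 fits. AGO5, an Argonaute gene known from reproductive tissue, read 3.65 and 7.37 in WT and 82.1 and 80.9 in tcx5/6. Of 26 Polycomb and trithorax genes only 2 (7.69%) were called, against 11.6% of all genes. CLF, the Polycomb histone methyltransferase, was 1 of these 2 and rose from 964.4 and 843.8 to 1525 and 1628.

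In the NAC family 6 of 89 members were called higher, near the 7.26% of all genes, and 1 lower, and 4 rose in all 5 fits. SOG1, the NAC factor that governs the response to DNA damage, rose from 452.9 and 412.0 to 739.3 and 750.1 (log2 0.78 ± 0.10). Its relatives NAC044 and NAC085, known to arrest the cycle before mitosis, rose from 54.0 and 57.6 to 662.8 and 694.9 and from 1.15 and 0.0665 to 18.4 and 26.7. In the stomatal lineage only 2 of 21 genes (9.52%) were called, near the 11.6% of all genes. They were MYB88 and FLP, a pair of MYB factors that stop division of guard mother cells. MYB88 rose from 414.1 and 362.3 to 857.8 and 804.3, and FLP from 556.1 and 541.0 to 909.7 and 1008. Of 26 genes of the endocycle and organ size 3 were called, all higher, and BIN4 alone rose in all 5 fits. The 11.5% called in this list was near the 11.6% of all genes. BIN4, a topoisomerase VI component needed for endoreduplication, rose from 290.5 and 298.2 to 790.1 and 824.5. HPY2, a SUMO ligase of the endocycle switch, rose from 173.0 and 149.6 to 430.9 and 410.7.

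**Figure D2:**
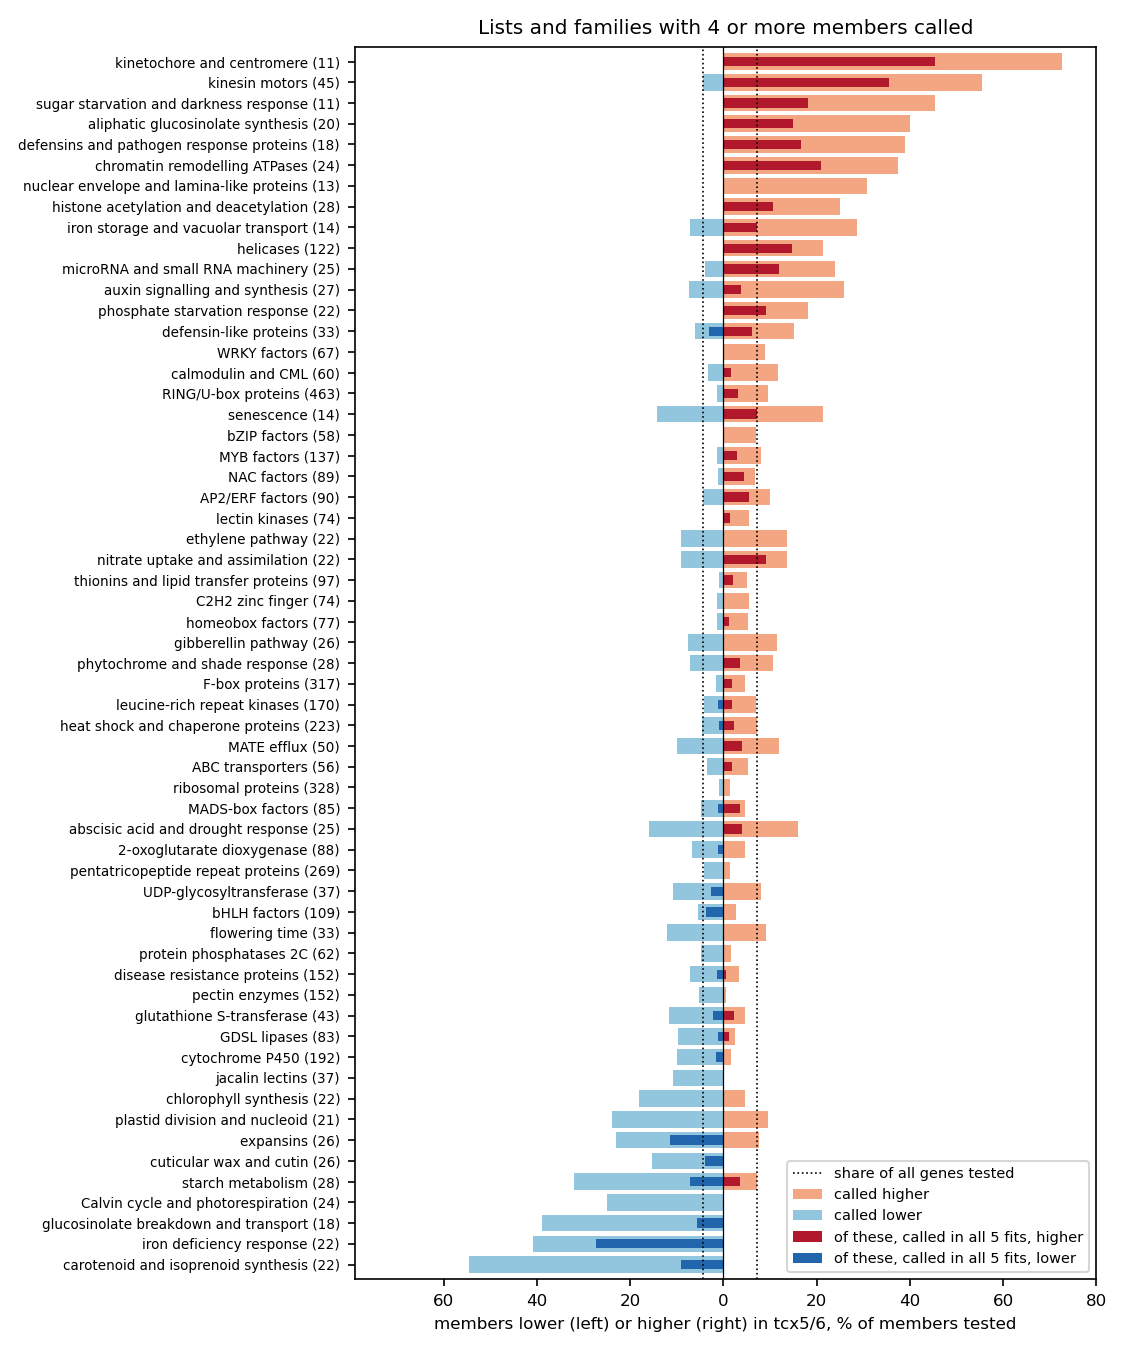
Bars show the share of tested members called higher (right) or lower (left) in tcx5/6 seedlings, in percent of members tested, for lists and families with 4 or more called; dark parts were called in all 5 fits, and dotted lines mark 7.26% and 4.35% of all genes tested. Kinetochore genes (8 of 11) and kinesins (25 of 45) reach farthest up, carotenoid (12 of 22) and iron deficiency genes (9 of 22) farthest down.

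In the iron deficiency response 9 of 22 genes were called, all lower, and 6 fell in all 5 fits. The other 13 were not called, and the list's median log2 change was -0.10. The bHLH factors of group Ib, partners of FIT that switch on iron uptake, fell most. BHLH100 read 481.0 and 298.4 in WT and 33 and 34.9 in tcx5/6, and bHLH39 went from 360.9 and 260.9 to 40.7 and 58.1 (log2 -2.63 ± 0.21, limma-trend adjusted p = 0.00021). The related bHLH38 read 306.1 and 149.5 in WT and 32.4 and 47.5 in tcx5/6. The WT libraries of bHLH38 and BHLH100 lay far from each other. All 3 are among the largest falls, for which groups that do not overlap were a condition.

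PYE, a bHLH repressor in the same network, fell from 827.8 and 805.1 to 414.2 and 468.5, and the vacuolar transporter gene ZIF1 from 4101 and 3634 to 2285 and 2563. The root iron transporter gene IRT1 was not called, at 113.2 and 164.4 in WT and 259.7 and 150.5 in tcx5/6. AT1G13609, a defensin-like gene, fell from 1992 and 1513 to 367.6 and 507.7. In the separate list of iron storage and vacuolar transport 4 of 14 genes were called higher and 1 lower, and with 1 library left out 1 to 3 were called. YSL1 alone was called in all 5 fits. YSL1, which carries iron bound to nicotianamine, rose from 642.6 and 596.2 to 1170 and 999.0.

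The summed photosynthetic markers given above were lower in tcx5/6 beside the chloroplast lists that follow, and their part was not tested. Of 22 carotenoid and isoprenoid genes 12 were called, all lower, but only 2 fell in all 5 fits. HDR, the last enzyme of the plastid isoprenoid route, read 23740 and 24820 in WT and 16490 and 17640 in tcx5/6 (log2 -0.51 ± 0.07). NPQ1, the violaxanthin de-epoxidase, fell from 2836 and 3079 to 1795 and 1943. In the Calvin cycle and photorespiration 6 of 24 genes were called lower, but none in all 5 fits, and without 1 library only 0 to 1 of them were called. The log2 changes of the 24 Calvin cycle and photorespiration genes ran from -0.87 to -0.008, with a median of -0.34. The fit on the 4 compared libraries alone called 20 of these 24, and 21 of the 22 carotenoid and isoprenoid genes. Single abundant chloroplast transcripts that fell were PGR5-LIKE A of cyclic electron flow (log2 -0.74 ± 0.11), the thylakoid protease gene FTSH8 (-0.51 ± 0.07) and the thioredoxin gene CDSP32 (-0.59 ± 0.08).

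Starch metabolism had 9 of 28 genes called lower and 2 higher, against 4 to 6 in all with 1 library left out, and 2 fell and 1 rose in all 5 fits. SS4, a starch synthase that starts granules, fell from 2652 and 2778 to 1845 and 1866. The chloroplast beta-amylase gene CT-BMY, which degrades starch, rose from 1567 and 1632 to 2299 and 2214. Of 11 genes known to rise in sugar starvation and darkness 5 were called, all higher, 2 in all 5 fits. DIN10 of this list read 3399 and 2963 in WT and 7495 and 8122 in tcx5/6, and MYBR1, a MYB factor of abscisic acid and stress responses, rose from 861.7 and 830.2 to 1438 and 1970.

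Glucosinolates, sulphur compounds of the cabbage family, are made from amino acids and broken down on wounding. Of 20 aliphatic synthesis genes 8 were called, all higher, and 3 rose in all 5 fits. IMD1, a dehydrogenase of methionine chain elongation, rose from 7697 and 7789 to 13900 and 12980 (log2 0.79 ± 0.08). GSTU20 rose by log2 0.53 ± 0.07 and BAT5, a plastid transporter of the same route, by 0.47 ± 0.07. Of 18 breakdown and transport genes 7 were called, all lower, but only ESM1 fell in all 5 fits. Of the 17 indolic synthesis genes 1 was called.

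Among defence genes, 7 of 18 defensins and pathogen response proteins were called, all higher, and 3 rose in all 5 fits. ORA59, the factor that joins jasmonate and ethylene signals, rose from 59.2 and 39.2 to 197.7 and 220.3. Its known target PDF1.2 read 28.7 and 11.1 in WT and 313.9 and 419.6 in tcx5/6, and the close paralog PDF1.3 read 49.3 and 51.4 against 359.7 and 340.6. The sources used here do not say how reads shared by such paralogs were counted, which leaves the split between them uncertain. In the immune receptor family 11 of 152 disease resistance genes were called lower and 5 higher, but with 1 library left out 3 to 4 were called in all. The 10.5% of this family called in either direction was near the 11.6% of all genes. RPP4 and RPP1 are receptors known for resistance to downy mildew. RPP4 fell from 5111 and 5231 to 2923 and 3200, and RPP1 from 5483 and 5675 to 3689 and 3784.

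In the hormone and nutrient lists few genes were called in all 5 fits. Auxin genes had 7 of 27 called higher and 2 lower, but 1 to 3 were called with 1 library left out, and IAA2 alone, an early auxin-responsive repressor, rose in all 5 fits (1577 and 1791 to 2555 and 3017). Of 25 abscisic acid and drought genes 4 were called higher and 4 lower, or 1 to 6 in all with 1 library left out. PYL5, an abscisic acid receptor gene, rose from 460.1 and 448.8 to 977.5 and 1006. HB-2, a homeobox factor of shade avoidance, rose from 396.8 and 371.1 to 1196 and 1200 (log2 1.64 ± 0.12). Of 22 phosphate starvation genes 4 were called, all higher, and 2 rose in all 5 fits. MGDC, for a galactolipid synthase, rose from 170.5 and 140.6 to 484.6 and 396.9, and PS2, for a phosphatase, from 429.9 and 457.2 to 911.4 and 734.2. Nitrate genes had 3 of 22 called higher and 2 lower, and 2 rose in all 5 fits. NRT1.5, which loads nitrate into the xylem, rose from 5202 and 5057 to 7881 and 8023, and LBD38, a repressor of nitrogen-responsive genes, from 1300 and 1328 to 2065 and 2025.

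Factors of stress and flowering appeared among single members. ERF104 and its neighbour AT5G61590, both AP2/ERF genes on chromosome 5, rose from 132.5 and 144.7 to 353.0 and 528.2 and from 982.8 and 1083 to 1914 and 2563. They belong to a family of which 9 of 90 were called higher and 4 lower, 5 of them higher in all 5 fits. In either direction 14.4% of the AP2/ERF family was called, against 11.6% of all genes. MYB73 rose from 467.4 and 494.8 to 1264 and 1639. SEP3, a MADS-box factor of floral organs, rose from 184.5 and 147.1 to 483.4 and 405.8, while the flower markers AP3, PI and AG were not called and read at most 23.5.

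In cell wall and secondary metabolism, expansins, which loosen walls in growing cells, had 6 of 26 called lower and 2 higher, and 3 fell in all 5 fits. EXPA1 fell from 16020 and 16970 to 10250 and 10160, EXPA10 from 2277 and 2398 to 1166 and 1210, and EXPA8 from 4830 and 5085 to 2753 and 2907. Cytochromes P450 had 19 of 192 called lower and 3 higher, but only 3 fell in all 5 fits, led by CYP706A6 (1842 and 2036 to 996.2 and 956.5). The 11.5% of P450 genes called in either direction was near the 11.6% of all genes. PEL3, an acyltransferase needed for cutin, fell from 3441 and 3830 to 1820 and 2006. AT2G21210, a SAUR-like gene, fell from 1825 and 1951 to 764.6 and 858.8.

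Of 328 ribosomal protein genes 5 were called higher and 3 lower, below the shares of all genes. Of 269 pentatricopeptide repeat genes 4 were called higher, below the share of all genes, and 11 lower, near the 4.35% of all genes. In 11 lists with 199 tested members, limma-trend called none: autophagy, unfolded protein response, proteasome, suberin, secondary and primary cell wall, trichome and root hair patterning, leaf polarity, beta oxidation, seed maturation and embryo sac. At an unadjusted p under 0.05 they held 10 genes higher and 20 lower, and the fit on the 4 libraries alone called 24.

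Called genes were spread along all 5 chromosomes, from 6.71% higher on chromosome 2 to 7.78% on chromosome 3, and from 4.09% lower on chromosome 1 to 4.84% on chromosome 4. In 112 windows of 1 Mb with at least 50 genes tested, the share called higher ran from 0% to 13.8% with a median of 6.89%. The share called lower ran from 0% to 9.46% with a median of 4.23%. The highest share of lower genes, 7 of 74, lay between 13000001 and 14000000 on chromosome 5, where MRU1 and AT5G35480 are.

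Leaf, SAM and the ddm1 background share no library with the WT and tcx5/6 seedlings, so their values were set beside them. The ddm1 comparison was fitted together with the WT and tcx5/6 seedlings, though, and its calls use the same spread for each gene. Genes picked for small p in seedlings may thus be called more easily in the ddm1 background, so the overlap with it is not independent. How much the shared spread adds to that overlap was not tested. Leaf and SAM differ from the seedlings in age as well as tissue, and the ddm1 libraries differ from the other seedling libraries in measures given below. Of 24429 genes tested, 42.6% were called in leaf (21.3% higher, 21.4% lower) and 30.1% in SAM (15.6% and 14.5%). Of 25016 genes, 39.3% were called between tcx5/6 ddm1 and ddm1 seedlings (17.7% and 21.6%). Of the 673 genes that rose in seedlings, 86.6% of the 672 tested were called higher in SAM, 81.1% in leaf (545) and 586 of 673 in the ddm1 background (87.1%). Seen from the other side, they made up 15.3% of genes called higher in SAM, 10.5% in leaf and 13.2% in the ddm1 background. In the opposite direction 16, 27 and 39 were called.

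Of the 153 genes that fell, 122 of 149 tested were called lower in SAM (81.9%), 95 of 149 in leaf (63.8%) and 103 of 153 in the ddm1 background (67.3%). They made up 3.45%, 1.82% and 1.91% of the genes called lower there. In the opposite direction 0, 12 and 20 were called. In all 4 comparisons 469 genes were higher and 66 lower, and 5 rises and 9 falls were called in none of the other 3. The 4 are not independent, as the ddm1 comparison shares its spread with the seedling one, and leaf shares its spread with SAM. The aliphatic glucosinolate list read 8 higher and 0 lower in seedlings, 9 and 1 in the ddm1 background, 1 and 12 in leaf and 2 and 13 in SAM, all of 20.

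**Figure D3:**
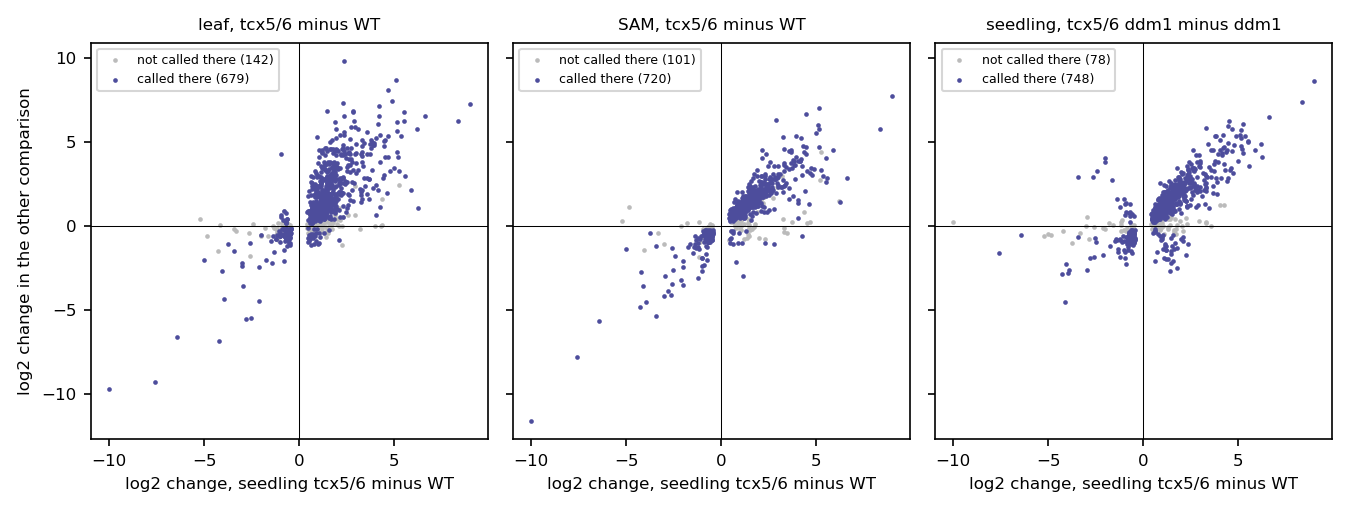
Each point is 1 of the 826 genes called in all 5 seedling fits, with its log2 change in seedlings (x axis) and in leaf, SAM or the ddm1 background (y axis); blue points were also called there. Most rises lie in the upper right of all 3 panels, while falls spread to both sides of 0 in leaf and in the ddm1 background.

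TIL2 was also near 0 in ddm1 seedlings and WT leaf and was higher in every tcx5/6 group: 131.9 and 198.2 in tcx5/6 ddm1, 128.0 and 330.8 in tcx5/6 leaf, and 4164 and 4074 in tcx5/6 SAM against 66.0 and 85.9 in WT SAM. POK1 read 8.46 and 4.46 in WT leaf and 122.3 and 201.3 in tcx5/6 leaf. Its WT level was much higher in SAM, at 2099 and 2141, and it read 6879 and 7257 in tcx5/6 SAM.

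QQS and its like behaved otherwise in the ddm1 background. QQS was listed at 0 in tcx5/6 leaf and SAM as well, against 815.1 and 868.0 in WT leaf and 3196 and 3022 in WT SAM. The ddm1 seedlings read 1826 and 1851 for it, tcx5/6 ddm1 seedlings 2246 and 1991. MRU1 read 4261 and 3266 in tcx5/6 ddm1, against 5395 and 5416 in ddm1, and AT5G35480 2374 and 2207 against 6596 and 7640. The tcx5/6 difference was thus far smaller in the ddm1 background for these 3 genes, and a limma interaction term put the change between backgrounds at log2 10.21 for QQS (adjusted p = 1.8e-07), 5.90 for MRU1 and 5.94 for AT5G35480. Other values differed between the backgrounds too. The morning clock gene CCA1 read 6975 and 7577 in WT and 5215 and 5519 in tcx5/6, but only 802.3 and 1016 in ddm1 seedlings and 476.7 and 248.9 in tcx5/6 ddm1. The evening gene TOC1 was at 674.6 to 786.6 in WT and tcx5/6 libraries and at 3413 to 4904 in the ddm1 ones. Low values fell on more distinct steps in ddm1 and tcx5/6 ddm1 (14.3% distinct pairs) than in WT (5.42%) and tcx5/6 (5.06%). DDM1 itself was lower in ddm1 (118.8 and 145.2) than in WT (709.3 and 647.9). It was higher with tcx5/6 in both backgrounds, at 568.8 and 654.4 in tcx5/6 ddm1 and 1925 and 2061 in tcx5/6. The part of these differences in the interaction was not tested.

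The iron factors even turned direction. BHLH100 read 1241 in both tcx5/6 ddm1 libraries, against 157.4 and 171.9 in ddm1, and bHLH39 1257 and 1153 against 157.7 and 162.5. In that background 16 of 22 iron deficiency genes were called higher and 1 lower. Of 19 tested in leaf and SAM, 0 were called higher and 9 lower in SAM, and 4 higher and 2 lower in leaf. In the ddm1 background DIN10 moved opposite to the iron factors, from 27970 and 34600 in ddm1 to 8590 and 7432 in tcx5/6 ddm1. Over all genes, the interaction was called in 3632 of 25016 (14.5%), and in 238 of the 826 genes called in all 5 fits (28.8%), which were chosen by a difference that enters the interaction. Of those 826 genes 59 (7.14%) were called in opposite directions in the 2 backgrounds. Among the 130 named ones, picked for large changes or small p, there were 20 (15.4%).

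**Figure D4:**
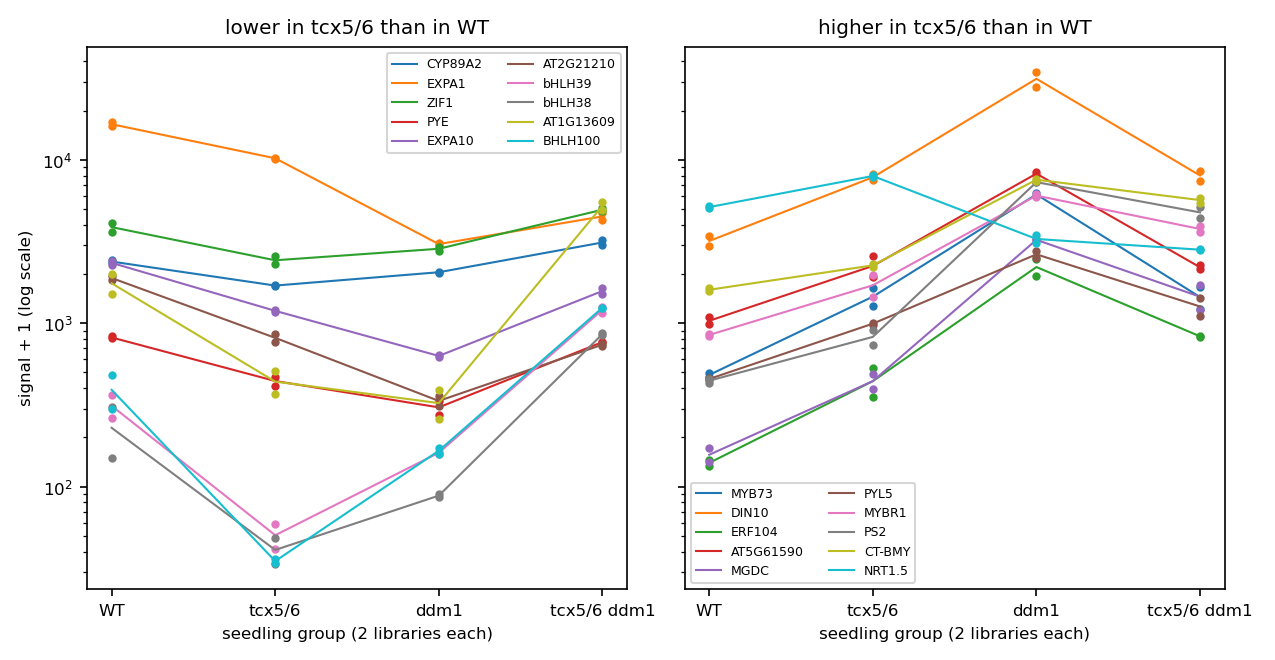
Signal plus 1 on a log axis in the 4 seedling groups, 2 libraries each as points with lines through the means, for the 20 named genes called in opposite directions in the 2 backgrounds. Genes on the left were lower in tcx5/6 than in WT but higher in tcx5/6 ddm1 than in ddm1, and genes on the right the reverse.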

How the data were processed

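Messenger RNA of 16 libraries was sequenced, 4 of which (2 WT, 2 tcx5/6 seedlings) form the main comparison. Per the submitters' processing notes, the authors used HISAT2, edgeR and the build TAIR10. The sources used here give no versions, counting step or strand setting. The deposited unit is signal, that is, read counts rescaled by the authors to one library size, judged from the values, which are fractional and sum to similar totals. Because these are not raw counts, no count test was run, and intervals for counting error were not computed.

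Values below 1e-06 were read as 0. A gene was tested if 2 or more libraries reached a value of 1 (25016 of 32833 in seedlings, 24429 in leaf and SAM) with limma 3.58.1 in R 4.3.3, as limma-trend on log2(value + 1), fitting the 4 groups of a table (8 libraries) together. Log2 changes carry this pseudocount and understate low genes. The Benjamini-Hochberg adjustment ran over every gene tested. Each of the 4 libraries was left out in turn; a group left with 1 library is then assumed to vary like the others. The interaction term was chosen after seeing the data. Scripts were tested on simulated data. Python 3.11.15 and matplotlib 3.10.9 were used for counts, promoters and figures. Gene names, positions and promoters come from RefSeq TAIR10.1, by locus tag.

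Named genes are TCX5 and TCX6, the 15 largest rises, the 15 largest falls and the 10 with the highest signal. Added to these are up to 4 per list and 3 per family by smallest adjusted p, and genes switched between under 5 and over 50. The rises, falls and highest signals were taken from genes called in all 5 fits. Their higher group mean had to be at least 100 and their groups could not overlap. Markers and list members outside this rule are given with values where a result needs them. The members, lists and families were chosen with earlier results of these data known, and some family patterns were corrected after seeing which genes they matched.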

Additional observations from a re-analysis of the deposited data

Results flagged for a closer look

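The tcx5/6 difference was measured in 2 seedling backgrounds, and 39 of the 130 named genes called in all 5 fits differed between them. For each, a limma interaction term (the tcx5/6 difference in ddm1 minus that in the DDM1 background) had an adjusted p under 0.05, and it kept it with any 1 of the 8 seedling libraries left out (highest adjusted p = 0.0486). This test was chosen after seeing the data. With all 8 libraries 54 of the 130 (41.5%) passed it, against 238 of all 826 genes called in all 5 fits (28.8%) and 14.5% of all genes tested. The named genes were chosen by a tcx5/6 difference that is itself part of the interaction. Values below are interactions on the log2 scale. The 2 backgrounds also differed in clock genes and in the steps of low values, as given above, and the part of these was not tested.

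Called higher in tcx5/6 against WT but lower in tcx5/6 ddm1 against ddm1 were MYB73 (-3.68), DIN10 (-3.26), ERF104 (-3.03), AT5G61590 (-3.005), MGDC (-2.67), PYL5 (-2.19), MYBR1 (-1.67), PS2 (-1.501), CT-BMY (-0.91) and NRT1.5 (-0.85). MYB73 and ERF104 are stress-related transcription factors, and MGDC and PS2 phosphate starvation genes.

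Called lower in tcx5/6 but higher in tcx5/6 ddm1 were CYP89A2 (1.09), EXPA1 (1.25), ZIF1 (1.47), PYE (2.22), EXPA10 (2.29), AT2G21210 (2.37), bHLH39 (5.54), bHLH38 (5.701), AT1G13609 (6.04) and BHLH100 (6.35). They include 5 genes of iron homeostasis or its regulation, BHLH100, bHLH38, bHLH39, PYE and ZIF1, and 2 expansins.

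The other 19 differed in size without opposite calls. A lower or less positive difference in the ddm1 background was found in ORA59 (-2.39), HB-2 (-1.99), AT3G23550 (-1.75), PEL3 (-1.32), AT1G28660 (-1.07) and SAG20 (-0.79). A higher or less negative one was found in AT2G42750 (0.6956), AT5G33300 (1.04), AT2G40960 (1.85), AT4G14548 (2.51), AT2G15042 (2.76), AT5G26270 (3.002), AT2G05914 (3.49), ESM1 (3.96), AT4G07820 (4.31), SAE1B (4.63), MRU1 (5.903), AT5G35480 (5.94) and QQS (10.21). QQS, AT5G35480 and AT2G05914 were listed at 0 in both tcx5/6 libraries of the DDM1 background, so their values depend on the pseudocount. SAE1B has a near-identical paralog, and how its reads were split is uncertain.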

How the results depend on the processing

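Genes called numbered 6508 (3532 higher, 2976 lower) in a fit of the 4 compared libraries alone, 988 to 1313 with 1 library left out, and 2810 with the replicate block. Genes called in all 5 fits numbered 371 with no filter on low values, 3981 in the 4-library fits and 606 with the replicate block. Genes called at 2-fold or more numbered 615 to 719 with 1 library left out and 926 with the block. In the other comparisons SAM gave 4675 to 5068 with 1 library left out, leaf 7999 to 10560 and tcx5/6 ddm1 against ddm1 7793 to 9083, and 6497 in a fit of its own 4 libraries. Without WT replicate 1 or 2 the seedling count was 1313 or 1016, and without tcx5/6 replicate 1 or 2 it was 988 or 1099. Leaving out a library leaves fewer samples, and the cause of the other moves was not tested. Rescaling by the median of ratios gave 3020, 804 and 938 for the 3 seedling counts. Replicate numbers share only a number: the correlation of their deviations was 0.1034, over 2 pairs, and the block ended the call of 1 named gene, RR5, which was not called in all 5 fits.

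No result reversed. The 130 named genes called in all 5 fits kept their calls under every other setting, except DFO with a pseudocount of 0.1. The fits with 1 library left out define this group, so its calls there were fixed in advance. Its genes were also picked for large changes or small p. The depth sequenced is unknown, so signals of a few units are of unknown precision. With 2 of the 4 E2F-type motifs alone, their share went from 1.84% to 1.104% in genes called lower, from 1.384% to 0.8777% in genes not called and from 1.788% to 1.212% in all genes tested.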
